A study of Mus musculus with 4 samples.

Results

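Ribosome biogenesis and nucleolar protein genes were followed here in an RNA immunoprecipitation (RIP) of SAFB, scaffold attachment factor B, a nuclear protein that binds RNA and chromatin. The members are the genes whose symbols begin with Utp, Nop, Rrp or Nol and a digit, together with Ncl, Npm1, Fbl, Dkc1, Nolc1, Tcof1, Dnttip2, Bop1, Pes1, Gnl2, Gnl3, Noc2l, Noc3l, Noc4l, Mphosph10 and Heatr1, each taken by name. The rule took 50 genes of the 52189 in the deposited table. It admits Nol4l, which carries a nucleolar name by similarity. It leaves out Nol3, Nol4 and the pseudogene Utp14b-ps1. All 50 genes passed the filter on low values and were tested.

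Ribosome assembly starts in the nucleolus, where RNA polymerase I makes a long precursor of the ribosomal RNAs. Box C/D and box H/ACA small nucleolar ribonucleoproteins methylate and pseudouridylate that precursor, and a large particle called the small subunit processome folds and cuts it to release the future 40S subunit. Other factors, among them the complex of PES1, BOP1 and WDR12, build the 60S subunit. In liver, as in other tissues, these proteins are made from ordinary mRNAs, several of which carry small nucleolar RNAs (snoRNAs) in their introns. The values below are of these mRNAs and their precursors in the nucleus, not of the proteins.

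The cells were AML12, a line of mouse hepatocytes derived from mice transgenic for human transforming growth factor alpha, so every library comes from 1 line. They were grown with serum, ITS supplement and dexamethasone, crosslinked by ultraviolet light and fractionated, and the lysed nuclei were sonicated. The lysate was shared between control IgG (2 libraries) and an antibody to SAFB (2 libraries), with no other difference of genotype or treatment between the groups. The input RNA was not analysed here. The labels do not say that the replicates came from separate cultures, so p-values measure only the spread between these libraries, which may be technical. Values are TPM, a gene's share of the transcripts in a library, scaled for gene length. The read depth is unknown.

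Identifiers above 0 numbered 16031 and 17278 in the IgG libraries and 22389 and 21006 in those of SAFB. Across genes, r in log2(TPM + 1) was 0.923 between the IgG libraries, 0.978 between the SAFB libraries and 0.830 to 0.862 between libraries of different groups. All 6 hepatocyte markers were present, summing to 7169 and 7257 TPM with IgG and 6116 and 6349 TPM with SAFB. Of these, Alb rose (log2 fold change 0.43, and -0.029 after median centring), Trf fell (-0.59) and 4 did not pass. The 3 cholangiocyte markers summed to 1211 and 852 TPM with IgG and 831 and 863 TPM with SAFB. Among them Krt19 fell (-0.62, and 0.069 with a trend on GC content removed), Krt7 did not pass and Epcam did not exceed 0.364 TPM. Of the 3 macrophage markers, Adgre1 and Clec4f were listed at 0, and Cd68 stood at 12.7 and 6.31 TPM with IgG and 31.5 and 21.3 TPM with SAFB, which did not pass (limma adjusted p = 0.0562). The endothelial and stellate markers did not exceed 1.76 TPM, and Stab2 was listed at 0. The part of these other markers in the results was not tested.

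Many of these mRNAs were recovered more with the SAFB antibody than with IgG, and the set was uneven. Of the 50 genes, 21 (42%) rose and 0 fell at an adjusted p below 0.05 in limma, where 29.8% of all 16647 genes tested rose and 8.30% fell. At an unadjusted p below 0.05, limma placed 29 of the 50 higher (58.0%, against 37.8% of all genes tested) and 5 lower (10.0%, against 12.0%). The median log2 fold change was 0.67 over the 50 genes, 0.46 over all genes tested and 0.34 over the protein-coding genes tested. Single values ran from -1.21 for Noc4l to 3.55 for Utp3. The summed level of the 50 genes was 1835 and 1976 TPM in the IgG libraries and 3369 and 3321 TPM in the SAFB libraries. Because TPM is a share of a library, a higher share of these RNAs and a lower share of others cannot be told apart. The total RNA that each antibody recovered cannot be read from TPM either.

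The SAFB pair lay wholly above the IgG pair for 32 of the 50 genes (64.0%, against 52.3% of all genes tested) and wholly below it for 8 (16.0%, against 21.4%). For the other 10 the groups overlapped. The IgG libraries differed more from each other than the SAFB libraries did. The median absolute log2 difference within the pair was 0.44 with IgG and 0.13 with SAFB over the 50 genes, and the IgG difference was the larger in 37 of them. The count of 21 was not kept when either SAFB library was left out. Without SAFB library 1 it was 0 by adjusted p (13 at an unadjusted p below 0.05), and without SAFB library 2 it was 1, Nolc1 (12 unadjusted). In those fits the lone SAFB library is assumed to vary as the IgG libraries do. The median log2 fold change of the 50 genes was 0.66 in both of those fits, beside 0.67 with 4 libraries. Over all genes tested, the number higher went from 4964 to 767 and 782.

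The scaling between libraries also bears on the split. When each library was centred on its median, which lowers the median of all genes tested from 0.46 to about 0, 13 of the 50 genes were higher (26.0%, against 16.4% of all genes) and 6 were lower (12.0%, against 17.6%). The 8 genes no longer called were Ncl, Nol10, Nop2, Nop56, Rrp1, Utp11, Utp18 and Utp20. The 6 called lower were Bop1, Fbl, Noc2l, Noc4l, Nol6 and Rrp12. In all 11 alternative settings run on the 4 libraries, 11 of the 50 genes were called higher each time: Dkc1, Dnttip2, Gnl3, Mphosph10, Noc3l, Nol8, Nolc1, Npm1, Utp14a, Utp14b and Utp3. The share of all genes tested that was called higher in every one of these settings was not counted, so this number has no background beside it.

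**Figure D1:**
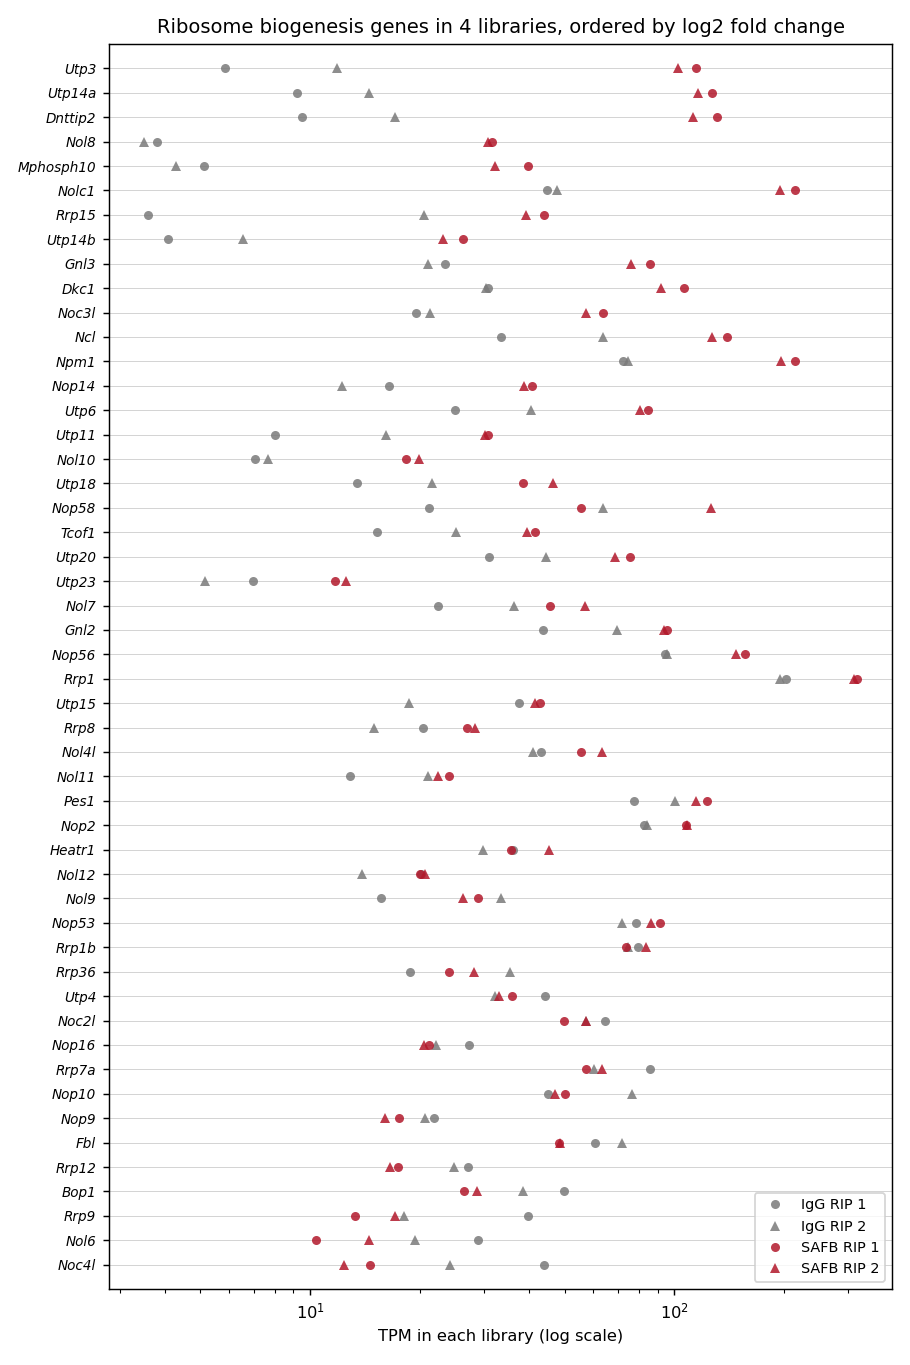
TPM of each of the 50 genes (rows, ordered by log2 fold change) in the 4 libraries on a log axis, IgG in grey and SAFB in red, replicate 1 as circles and replicate 2 as triangles. The SAFB points lie to the right of the IgG points in the upper rows, from Utp3 down, except for Nop58, whose groups overlap. They mostly mix with them from Heatr1 to Nop10, and lie to the left in the lowest 7 rows, Nop9 to Noc4l.

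SAFB has been described as binding purine-rich RNA, and the coding sequences of these genes hold stretches of that kind. The windows below are 60 bases each, read 5′ to 3′ on the sense strand of the GENCODE M21 transcripts (mm10), and lie within 1 coding exon. For each gene the window is the one with the most GAAGAA matches, which are in capitals, with overlapping matches counted. Among windows with equal matches, the one with the most A and G was taken. The windows were thus picked for purines, also where they hold 0 matches. The first set shows the 8 largest fold changes among the genes that rose, a choice made after the values were seen.
Utp3 at chr5:88555736-88555795 on the plus strand: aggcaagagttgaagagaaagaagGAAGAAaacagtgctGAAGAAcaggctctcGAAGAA
Utp14a at chrX:48273056-48273115 on the plus strand: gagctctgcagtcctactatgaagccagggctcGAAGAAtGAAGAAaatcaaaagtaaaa
Dnttip2 at chr3:122276674-122276733 on the plus strand: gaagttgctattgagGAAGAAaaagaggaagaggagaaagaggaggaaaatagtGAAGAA
Nol8 at chr13:49672552-49672611 on the plus strand: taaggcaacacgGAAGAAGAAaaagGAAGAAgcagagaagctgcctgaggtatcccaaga
Mphosph10 at chr7:64380981-64381040 on the minus strand: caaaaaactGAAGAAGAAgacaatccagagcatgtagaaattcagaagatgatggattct
Nolc1 at chr19:46083282-46083341 on the plus strand: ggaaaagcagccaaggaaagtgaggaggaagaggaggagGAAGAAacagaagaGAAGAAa
Utp14b at chr1:78665916-78665975 on the plus strand: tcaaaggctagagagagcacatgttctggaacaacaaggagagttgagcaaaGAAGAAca
Gnl3 at chr14:31013449-31013508 on the minus strand: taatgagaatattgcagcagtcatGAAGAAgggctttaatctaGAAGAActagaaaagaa
The second set shows the genes with the lowest log2 fold changes, for contrast.
Noc4l at chr5:110648918-110648977 on the minus strand: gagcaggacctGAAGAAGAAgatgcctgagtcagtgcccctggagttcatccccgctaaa
Nol6 at chr4:41123316-41123375 on the minus strand: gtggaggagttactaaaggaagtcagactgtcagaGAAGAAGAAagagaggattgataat
Rrp9 at chr9:106480703-106480762 on the plus strand: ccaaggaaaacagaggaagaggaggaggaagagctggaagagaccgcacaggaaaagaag
Bop1 at chr15:76474772-76474831 on the minus strand: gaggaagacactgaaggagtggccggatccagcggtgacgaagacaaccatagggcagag
The best windows of Utp3 and Nol8 hold 3 matches, that of Utp14b holds 1 and the other 5 of the first set hold 2. In the second set Noc4l and Nol6 also hold 2, while Rrp9 and Bop1 hold 0 anywhere in a coding exon window. A match in the best window thus did not separate the sets. The best window held a median of 2 matches both in the 21 genes that rose, 8 of which had 1, and in the 29 that did not pass, 8 of which had 1. Over the 50 genes it held from 0 to 4, and 4 genes had none (Utp15, Nop10, Bop1 and Rrp9). Cut into adjacent 60-base tiles, the coding sequences of the 50 genes held GAAGAA in 202 of 1657 tiles (12.2%), and those of all protein-coding genes tested in 22476 of 348643 (6.45%). The share was 15.5% in the 21 genes that rose and 9.24% in the 29 that did not pass. Over all protein-coding genes tested it was 8.81% in those that rose, 5.52% in those that did not pass and 3.29% in those that fell. Only the sense strand was searched, and a match describes letters, not a binding site.

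Among the abundant nucleolar phosphoproteins, 3 of 4 rose, where 29.8% of all genes tested did. Nolc1, which encodes the snoRNP chaperone Nopp140, stood at 44.7 and 47.7 TPM in the IgG libraries and 215 and 196 TPM in the SAFB libraries. The replicates lay close together in both groups and the mean with SAFB was 4.45 times that with IgG. On log2(TPM + 1) this was a log2 fold change of 2.13 ± 0.11 (SE) (limma adjusted p = 0.00378). Npm1, for nucleophosmin, a chaperone of ribosomal particles and histones, stood at 72.3 and 74.9 TPM with IgG and 215 and 196 TPM with SAFB. The groups were well apart, with a log2 fold change of 1.47 ± 0.11 (SE) (limma adjusted p = 0.00468). Of the 50-base stretches of the Npm1 transcript, 40.9% also occur in transcripts of other genes, so its TPM is uncertain. Ncl, for nucleolin, an RNA-binding protein of the nucleolus, stood at 33.4 and 63.9 TPM with IgG and 139.6 and 127 TPM with SAFB. The IgG values of Ncl lay far apart, both below the SAFB values. On the log2 scale Ncl rose by 1.51 ± 0.33 (SE) (limma adjusted p = 0.0272) and 1.05 after median centring, where it was not called. The fourth gene, Tcof1, for treacle, which links RNA polymerase I transcription to rRNA processing, had a log2 fold change of 1.0 ± 0.28 (SE) and just missed the threshold (limma adjusted p = 0.0507).

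The set holds 3 genes for proteins at the core of box C/D snoRNPs, which carry out 2′-O-methylation. Of these 1 rose, where 29.8% of all genes tested did. Nop56 stood at 94.3 and 95.7 TPM with IgG and 156 and 148 TPM with SAFB, and replicates lay close together. Its log2 fold change was 0.67 ± 0.10 (SE) (limma adjusted p = 0.0121) and fell to 0.21 after median centring, no longer called. With a trend on adenine content removed it was 0.14, also not called. Its transcript shares 37.6% of its 50-base stretches with other genes. Nop58, the partner of NOP56 in the same particle, stood at 21.2 and 63.8 TPM with IgG and 55.6 and 126 TPM with SAFB. The groups overlapped, since the second library of each was the higher one, and the log2 fold change of 1.16 ± 0.66 (SE) did not pass (limma adjusted p = 0.224). Fbl, for fibrillarin, the methyltransferase of the particle, stood at 60.5 and 72.0 TPM with IgG and 48.3 and 48.5 TPM with SAFB. Both SAFB values were below both IgG values, with a log2 fold change of -0.44 ± 0.14 (SE) (limma adjusted p = 0.0737), and -0.90 after median centring (limma adjusted p = 0.0118). Fbl shares 70.4% of its 50-base stretches with other genes, the highest share of the 50. Snu13, for the remaining core protein, which is no member, had a log2 fold change of -0.25 and did not pass (limma adjusted p = 0.229), and one of -0.71 after median centring (limma adjusted p = 0.0273). The values of Nop58 and Fbl in each library, like those of Rrp15 and Noc4l below, are shown because of how they fell.

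Of the set's genes for box H/ACA proteins, which guide pseudouridylation and also belong to telomerase, Dkc1 rose and Nop10 did not pass. Dkc1, for the pseudouridine synthase dyskerin, stood at 30.8 and 30.5 TPM with IgG and 106 and 91.8 TPM with SAFB. The IgG libraries agreed closely, and the log2 fold change was 1.66 ± 0.14 (SE) (limma adjusted p = 0.00527). Nop10, for a small protein of the same core, had a log2 fold change of -0.27 ± 0.28 (SE) (limma adjusted p = 0.488) and overlapping groups. Nhp2 and Gar1, for the other core proteins, are no members and did not pass (0.24 and 0.13).

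The small subunit processome held the 3 largest fold changes of the 50 genes. Across its 24 members, 11 rose and 0 fell (29.8% and 8.30% of all genes tested), with a median log2 fold change of 0.86. After median centring 7 of the 24 were higher and 3 lower (16.4% and 17.6% of all genes tested). At an unadjusted p below 0.05, 3 of the 24 were lower in limma (12.0% of all genes tested). These were Nol6 of UTP-C and 2 of the other factors. Utp3, also known as SAS10, a single-exon gene at chr5:88554462-88556090, stood at 5.84 and 11.8 TPM in the IgG libraries and 115 and 103 TPM in the SAFB libraries. The mean with SAFB was 12.3 times that with IgG, although the IgG libraries differed from each other, and the log2 fold change was 3.55 ± 0.34 (SE) (limma adjusted p = 0.00606). Utp14a, for a protein that works with the helicase DHX37 late in the life of the processome, stood at 9.23 and 14.5 TPM with IgG and 127 and 116 TPM with SAFB. Its log2 fold change was 3.28 ± 0.25 (SE) (limma adjusted p = 0.00475). Dnttip2, the counterpart of yeast Fcf2, which is needed for early cuts of the precursor, stood at 9.5 and 17.1 TPM with IgG and 131 and 113 TPM with SAFB. It rose by a log2 fold change of 3.15 ± 0.30 (SE) (limma adjusted p = 0.00606). All 3 mRNAs were low with IgG and among the more abundant of the 50 with SAFB. Mphosph10, whose protein holds IMP3 and IMP4 in the processome, stood at 5.12 and 4.28 TPM with IgG and 39.8 and 32.2 TPM with SAFB. It rose by a log2 fold change of 2.69 ± 0.27 (SE) (limma adjusted p = 0.00646).

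The remaining processome factors that rose had log2 fold changes between 0.94 and 2.06. Nop14, which helps to bring 40S precursors out of the nucleolus, stood at 16.5 and 12.2 TPM with IgG and 40.6 and 38.7 TPM with SAFB, a log2 fold change of 1.42 ± 0.23 (SE) (limma adjusted p = 0.014). Utp11 stood at 8.03 and 16.2 TPM with IgG and 30.8 and 30.2 TPM with SAFB, and its log2 fold change of 1.34 ± 0.37 (SE) was only just past the threshold (limma adjusted p = 0.0489). Nol10, the counterpart of yeast Enp2, stood at 7.07 and 7.66 TPM with IgG and 18.4 and 20 TPM with SAFB, a log2 fold change of 1.27 ± 0.26 (SE) (limma adjusted p = 0.0239). For these 3 genes the groups did not overlap, and the calls of Utp11 and Nol10 were lost after median centring. Utp20, which encodes a very large scaffold protein, stood at 31.1 and 44.5 TPM with IgG and 75.6 and 68.9 TPM with SAFB. Its log2 fold change of 0.94 ± 0.21 (SE) (limma adjusted p = 0.0301) became 0.48 after median centring, where it was not called. Utp23 and Nol7 had log2 fold changes of 0.91 and 0.81 and did not pass.

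In the same list of 15 other factors, 4 genes stood lower in both SAFB libraries than in both IgG libraries, without passing. The other 11 stood higher in both. Of all genes tested, 21.4% stood lower in this way and 52.3% higher. Noc4l, for a partner of NOP14, stood at 43.8 and 24.2 TPM with IgG and 14.6 and 12.4 TPM with SAFB. Its log2 fold change was -1.21 ± 0.34 (SE) (limma adjusted p = 0.0516), the lowest of the 50 genes, and -1.67 after median centring (limma adjusted p = 0.0257). NOC4L and NOP14 act in 1 complex, while their mRNAs lay at opposite sides of the list. Rrp9, for the U3 snoRNP protein, had a log2 fold change of -0.79 ± 0.43 (SE), Rrp12, a 40S export factor, of -0.58 ± 0.20 (SE), and Nop9 of -0.32 ± 0.21 (SE).

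UTP-A, UTP-B and UTP-C are the 3 building blocks of the processome that join the precursor early. Of the 6 UTP-B genes, 3 rose (29.8% of all genes tested did), among them both that belong to the set. Utp6 stood at 25.1 and 40.3 TPM with IgG and 84.9 and 80.6 TPM with SAFB, with a log2 fold change of 1.35 ± 0.25 (SE) (limma adjusted p = 0.0199). Utp18 stood at 13.5 and 21.6 TPM with IgG and 38.4 and 46.5 TPM with SAFB, with a log2 fold change of 1.26 ± 0.29 (SE) (limma adjusted p = 0.0302), which was not called after median centring (0.80). Of the 4 UTP-B genes outside the set, Wdr3 rose (0.89, limma adjusted p = 0.0268), with 0.43 and no call after median centring. Wdr36, Pwp2 and Tbl3 did not pass (0.55, -0.37 and -0.66), and Pwp2 and Tbl3 were called lower after median centring (-0.83 and -1.12). Of the 4 UTP-A genes in the set, 0 passed in either direction, also at an unadjusted p below 0.05 in limma, and the log2 fold changes ran from -0.13 (Utp4) to 0.65 (Utp15). The most abundant of them, Heatr1, stood at 36.1 and 29.8 TPM with IgG and 35.7 and 45.4 TPM with SAFB, with overlapping groups. Outside the set, the UTP-A genes Wdr43 and Wdr75 rose, by 1.72 ± 0.20 (SE) and 0.58 ± 0.16 (SE) on the log2 scale (limma adjusted p = 0.0082 and 0.0496), and Wdr75 was not called after median centring (0.12) and was -0.038 with a trend on adenine content removed. Of the 3 UTP-C genes in the set, 0 passed in limma, with 1 lower at an unadjusted p below 0.05, Nol6, whose log2 fold change was -0.89 ± 0.32 (SE) (limma adjusted p = 0.0894). Rrp7a, the most abundant of the 3, stood at 86.1 and 60.1 TPM with IgG and 57.2 and 63.2 TPM with SAFB and overlapped, and Rrp36 had a log2 fold change of 0.01. Differences between the 3 blocks were not tested.

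**Figure D2:**
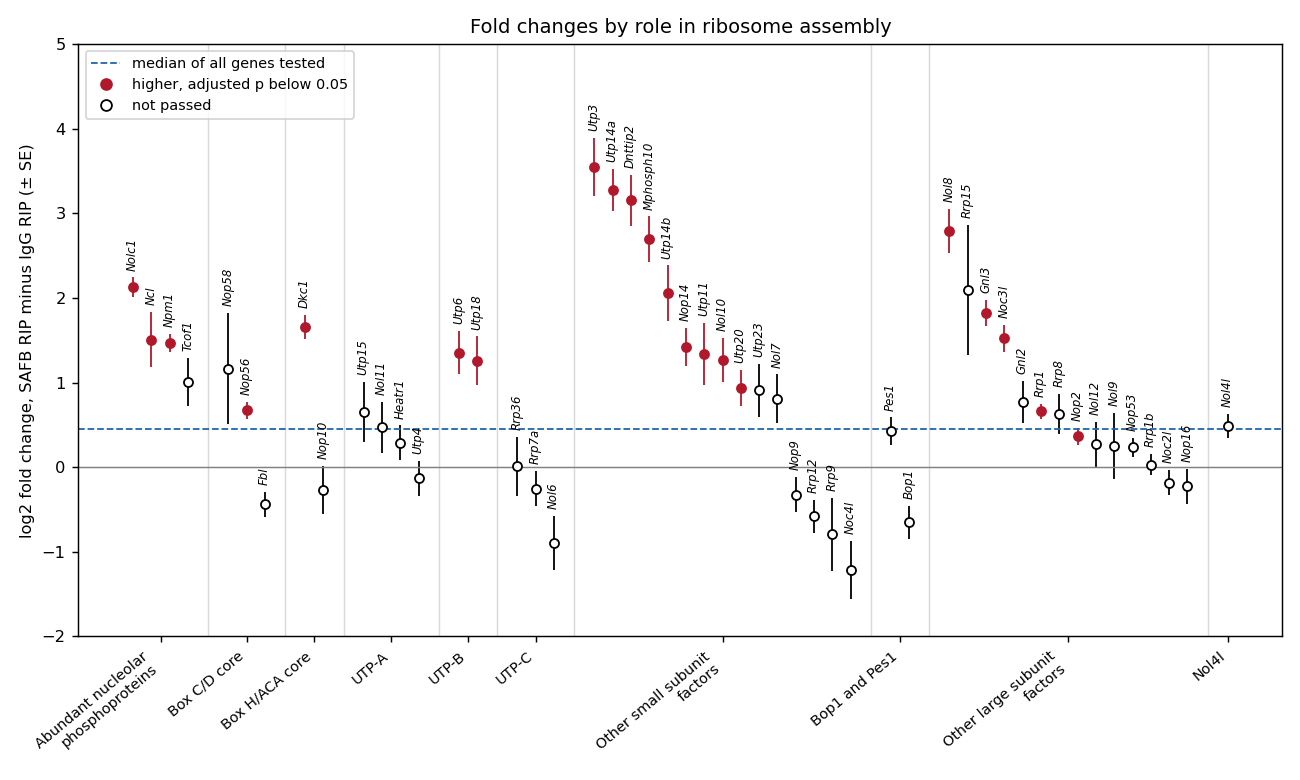
Log2 fold change (SAFB minus IgG, in log2(TPM + 1)) of each gene with its standard error, grouped by role; filled red points passed as higher at an adjusted p below 0.05, open points did not pass, and the dashed line is the median of all genes tested, 0.46. The 9 filled points among the other small subunit factors reach up to 3.55, the set's UTP-A and UTP-C genes are all open points, and the fold changes shift down by about 0.46 under median centring, where 13 genes are called higher and 6 lower.

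Among the 60S factors, 5 of 16 rose and 0 fell, where 29.8% of all genes tested rose and 8.30% fell. The median log2 fold change of the 16 was 0.40, below that of all genes tested (0.46). Limma placed 8 of the 14 genes outside the PES1 complex higher at an unadjusted p below 0.05 (37.8% of all genes tested). Nol8, for a nucleolar RNA-binding protein, stood at 3.79 and 3.51 TPM with IgG and 31.5 and 30.9 TPM with SAFB. The replicates nearly coincided in both groups, and the log2 fold change was 2.79 ± 0.26 (SE) (limma adjusted p = 0.00603). Gnl3, for the GTPase nucleostemin, stood at 23.4 and 21.1 TPM with IgG and 86.0 and 76.3 TPM with SAFB, a log2 fold change of 1.82 ± 0.15 (SE) (limma adjusted p = 0.00529). Noc3l, which acts with NOC2L on early 60S precursors, stood at 19.5 and 21.3 TPM with IgG and 63.8 and 57.3 TPM with SAFB, a log2 fold change of 1.52 ± 0.16 (SE) (limma adjusted p = 0.00679). Its partner Noc2l had a log2 fold change of -0.18, did not pass and had overlapping groups. Rrp15, which is needed for 60S precursors, stood at 3.59 and 20.6 TPM with IgG and 44.0 and 39.2 TPM with SAFB. Both SAFB values were higher, but the IgG libraries lay far apart, and the log2 fold change of 2.09 ± 0.77 (SE) did not pass (limma adjusted p = 0.096).

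The most abundant of the 50 mRNAs, Rrp1, stood at 203 and 195 TPM with IgG and 317 and 312 TPM with SAFB. Its log2 fold change of 0.66 ± 0.09 (SE) (limma adjusted p = 0.0103) was small beside those above, and was 0.20 and not called after median centring. Nop2, for a methyltransferase of 28S rRNA, stood at 82.5 and 84.4 TPM with IgG and 108 and 108 TPM with SAFB, and its log2 fold change of 0.37 ± 0.10 (SE) (limma adjusted p = 0.0479) turned to -0.09 after median centring. Nop53, which recruits the RNA exosome to 60S precursors, stood at 78.6 and 72.0 TPM with IgG and 91.3 and 86.2 TPM with SAFB and did not pass, with a log2 fold change of 0.23 ± 0.12 (SE). Gnl2, a GTPase that acts in 60S export, had a log2 fold change of 0.77 ± 0.25 (SE) (limma adjusted p = 0.0689). The other genes of this list, Rrp8, Nol12, Nol9, Rrp1b and Nop16, had log2 fold changes from -0.23 to 0.63 and did not pass.

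PES1 and BOP1 form 1 complex with WDR12, and the mRNAs of the first pair stood on opposite sides of 0 as deposited. Pes1 stood at 77.3 and 100.3 TPM with IgG and 123 and 115 TPM with SAFB, a log2 fold change of 0.43 ± 0.16 (SE) that did not pass (limma adjusted p = 0.0998) and was -0.03 after median centring. Bop1 had a log2 fold change of -0.65 ± 0.20 (SE) (limma adjusted p = 0.0603), with both SAFB values below both IgG values, and of -1.11 after median centring (limma adjusted p = 0.0194). With the GC trend removed both were above 0, Pes1 at 0.32 and Bop1 at 0.084. With the adenine trend removed they were at 0.34 and 0.043. Pes1 shares 20.6% of its 50-base stretches with other genes. Wdr12, which is no member, had a log2 fold change of 0.60 and did not pass. Nol4l, the member by name only, stood at 43.0 and 40.9 TPM with IgG and 55.6 and 63.3 TPM with SAFB and did not pass (log2 fold change 0.49 ± 0.14 (SE), limma adjusted p = 0.0533).

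The set holds 2 pairs of related genes. Utp14b is a retrogene of Utp14a that lies within Acsl3 on the same strand, at chr1:78658038-78671512, and is known for its need in sperm formation. It stood at 4.06 and 6.54 TPM with IgG and 26.4 and 23.2 TPM with SAFB, a log2 fold change of 2.06 ± 0.33 (SE) (limma adjusted p = 0.014). Acsl3 itself, for an acyl-CoA synthetase, had a log2 fold change of 1.35 ± 0.18 (SE), and the part of its reads in the value of Utp14b was not tested. The coding sequences of Utp14a and Utp14b were identical at 77.7% of aligned bases, and only 0.203% of the 50-base stretches of Utp14a occur in another gene. Rrp1 and Rrp1b were identical at 69.3% of aligned coding bases. Rrp1 rose, while Rrp1b, which also binds protein phosphatase 1, stood at 79.6 and 74.9 TPM with IgG and 73.8 and 83.9 TPM with SAFB, a log2 fold change of 0.03 ± 0.13 (SE) (limma adjusted p = 0.88). The difference within either pair was not tested. Leaving aside small RNA genes, 22 of the 50 genes overlap another annotated gene, 21 of them on the opposite strand. Whether counting used strand is not given in the sources used here.

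Several of these genes host snoRNAs in their introns, and 0 of the snoRNA entries tested rose. On the same strand, 17 snoRNA genes lie inside 6 of the 50 genes, and 11 of them, in 5 hosts, passed the filter. Of the 11, 0 rose in limma, 1 fell and 10 did not pass, where 29.8% of all genes tested rose and 8.30% fell. The median log2 fold change of the 11 was 0.53, beside 0.46 over all genes tested. Their hosts, each counted once per snoRNA, had a median of 1.16. Snora75, a box H/ACA snoRNA inside Ncl at chr1:86351169-86351301, stood at 18.2 and 24.1 TPM with IgG and 0.0544 and 0.155 TPM with SAFB. It was thus close to 0 in both SAFB libraries, with a log2 fold change of -4.32 ± 0.34 (SE, limma adjusted p = 0.00493), while Ncl rose by 1.51 on that scale. The Snora75 call was lost without SAFB library 1 (limma adjusted p = 0.14) or without SAFB library 2 (0.127), with log2 fold changes of -4.25 and -4.38. Snord82, also inside Ncl, had a log2 fold change of 1.53 and did not pass. Inside Gnl3, Snord69 had a log2 fold change of -0.33, Gm24916 of 0.17 and Snord19 of 0.74. Inside Nop58, Gm26287 had a log2 fold change of -1.57 and Snord11 of -1.0, both called lower after median centring (limma adjusted p = 0.0241 and 0.0268), and Snord70 of 2.43. Inside Nop56, Snord110 had a log2 fold change of 1.07 and Gm24451 of 0.94, and Snord23 inside Nop53 had one of 0.53. Mature snoRNA and intronic precursor of the host cannot be told apart in these entries, and their level is uncertain. The microRNA entries mmu-mir-3535 in Ncl and Mir3066 in Nol10 had log2 fold changes of -0.57 and 0.21 and did not pass.

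The fold changes of the 50 genes followed the adenine content of their transcripts, a description added after the values were seen. Over 1 representative GENCODE M21 transcript per gene, Pearson's r between log2 fold change and adenine percentage was 0.86 and Spearman's rho 0.89 across the 50 genes. Across the 11961 protein-coding genes tested they were 0.61 and 0.64, and across 105 other genes of the pathway 0.72 and 0.76. These are correlations across genes that share the same 4 libraries, and genes are not independent replicates. With GC content, r was -0.64 over the 50 genes and -0.48 over the protein-coding genes. With GAAGAA matches per kilobase r was 0.62 and 0.30, and with TTCTTC, the reverse complement, it was -0.24 and -0.01. Transcript length (r = 0.03), the longest exon (0.15), the number of exons (-0.15) and mean TPM (0.11) showed little relation over the 50 genes.

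The 21 genes that rose had 25.0% to 35.6% adenine, with a median of 29.6%, and the 29 that did not pass had 19.9% to 32.1%, with a median of 24.6%. The protein-coding genes tested were split at 23.6% and 27.0% adenine into 3 groups of 3987. Below 23.6% adenine lay 10 of the 50 genes, of which 0 rose (6.55% of protein-coding genes there did), with a median log2 fold change of -0.51. Between the limits lay 16, of which 2 rose (12.5%, against 24.8%), with a median of 0.33. Above 27.0% lay 24, of which 19 rose (79.2%, against 53.5%), with a median of 1.49. Mphosph10 was the most adenine-rich at 35.6%, followed by Nol8 at 34.3% and Dnttip2 at 34.1%. At the other end Nol6 had 19.9%, Rrp9 20.4% and Nop9 21.1%. When a smooth trend of log2 fold change on adenine over all genes was removed, 14 of the 50 genes were higher (28.0%, against 23.0% of all genes) and 0 were lower (2.60% of all genes). Of these 14, 13 had been called as deposited and the other was Nol4l. The calls of Ncl, Nol10, Nop14, Nop56, Utp11, Utp18, Utp20 and Utp6 were lost. The median of the 50 genes was then 0.47 and that of all genes 0.43. With a trend on GC content removed, 19 were higher (26.0% of all genes) and 0 lower (4.90%). Of these 19, 17 had been called as deposited.

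**Figure D3:**
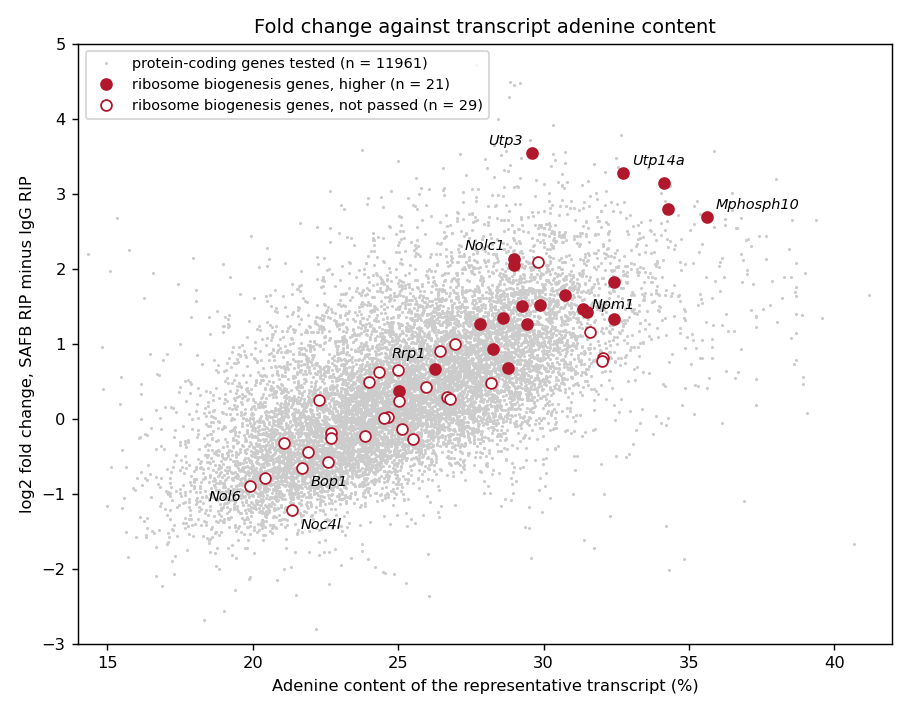
Log2 fold change (SAFB minus IgG) against the adenine percentage of the representative transcript, with the 11961 protein-coding genes tested in grey (6 lie outside the plotted range) and the 50 genes in red, filled where they rose. The 24 of the 50 genes above 27.0% adenine have a median of 1.49 and the 10 below 23.6% a median of -0.51.

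**Figure D4:**
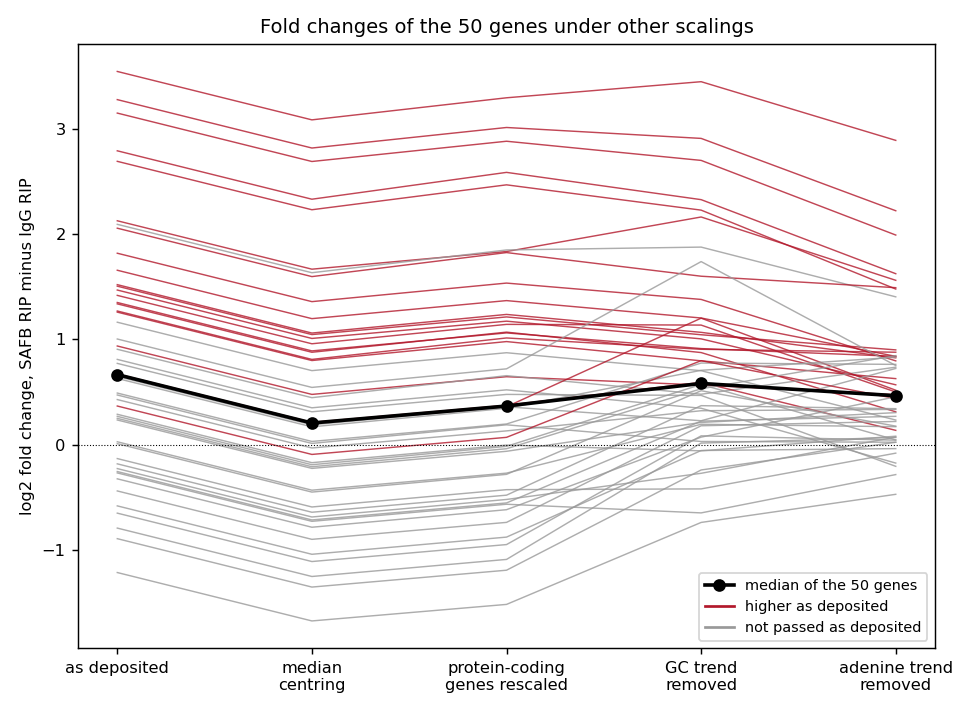
Log2 fold change of each of the 50 genes as deposited and under 4 other scalings, red for genes called higher as deposited and grey for the rest, with the median of the 50 in black. The median goes from 0.67 to 0.21 after median centring, 0.37 with protein-coding genes rescaled, 0.58 with the GC trend removed and 0.47 with the adenine trend removed, and the spread between genes narrows in the last.

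The rest of the pathway was taken from 5 lists of genes that are no members, of which 105 genes were tested. Of these, 35 rose and 7 fell (29.8% and 8.30% of all genes), with a median log2 fold change of 0.39. After median centring 19 were higher and 22 lower (16.4% and 17.6% of all genes). Without SAFB library 1 or without SAFB library 2, 0 were called in limma in either direction (20 higher at an unadjusted p below 0.05 in each case, and 4 and 6 lower). RNA polymerase I and its factors had 5 of 15 higher and 2 lower. Ttf1, the terminator of rDNA transcription, rose by 2.81 ± 0.35 (SE) on the log2 scale and the subunit gene Polr1d by 1.17 ± 0.11 (SE), while the core subunit gene Polr1b fell, with a log2 fold change of -0.98 ± 0.15 (SE). Ubtf, which opens rDNA chromatin, and Taf1d did not pass (0.37 and -0.06).

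Other processome genes had 11 of 31 higher and 1 lower (29.8% and 8.30% of all genes). Bms1, a GTPase of the processome, rose by 2.38 ± 0.12 (SE) on the log2 scale and Pdcd11, the counterpart of yeast Rrp5, by 0.56 ± 0.10 (SE), which was 0.10 and not called after median centring. Imp4, for a partner of MPHOSPH10, fell, with a log2 fold change of -0.75 ± 0.17 (SE), whereas Mphosph10 was among the highest. Emg1 did not pass (-0.51). Other 60S genes had 13 of 33 higher and 3 lower. Mak16 rose by 2.21 ± 0.19 (SE) on the log2 scale and Ftsj3, a methyltransferase-like factor, by 1.65 ± 0.13 (SE), and Eif6, which keeps free 60S subunits from joining 40S subunits, fell, with a log2 fold change of -1.03 ± 0.13 (SE). Senp3 did not pass (0.11).

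Among snoRNP proteins and assembly factors 3 of 12 rose and 1 fell (29.8% and 8.30% of all genes). Rpap3 and Ruvbl1, of the R2TP complex that assembles box C/D particles, rose by 2.11 ± 0.13 (SE) and 1.43 ± 0.23 (SE) on the log2 scale. Ruvbl2, the partner of RUVBL1 in the same complex, fell, with a log2 fold change of -0.68 ± 0.18 (SE) (limma adjusted p = 0.0447). It was not called with a pseudocount of 0.1 or without a filter, and was 0.033 with the GC trend removed. Nhp2, given above, did not pass. The RNA exosome and its nuclear cofactors had 3 of 14 higher and 0 lower in limma (29.8% and 8.30% of all genes). At an unadjusted p below 0.05 in limma, 1 was lower (12.0% of all genes). The cofactor genes Mphosph6 and Skiv2l2 rose by 2.19 ± 0.16 (SE) and 1.56 ± 0.14 (SE) on the log2 scale, and Exosc7 and Exosc10 did not pass (-0.09 and 0.07). As with the 50 genes, partners of 1 complex lay on both sides of 0 in several of these lists as deposited. Of all genes tested, 52.3% had both SAFB values above both IgG values and 21.4% had both below, so both directions were common. Whether partners differed more than other genes do was not tested.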

How the data were processed

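RNA recovered with IgG and with anti-SAFB was sequenced in 4 libraries of AML12 cells. A single table of TPM values was deposited by the authors. Per the submitters' processing notes HISAT2, HTSeq, DESeq2, StringTie and the build mm10 are named, with neither version nor role. Which tool gave the TPM, which annotation it used and whether it counted by strand was not given in the sources used here. As a share, TPM keeps no read depth, so no counting interval is given.

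Entries sharing an identifier (14 entries, 6 identifiers) were summed, which left 52189 identifiers, of which 52042 and all 50 members were in GENCODE M21. Genes that reached 1 TPM in 2 or more of the 4 libraries were tested on log2(TPM + 1), which understates the change of low genes, with limma 3.58.1 in R 4.3.3 (variances with a trend on mean level, residual df 2, prior df 2.50). Benjamini-Hochberg adjustment ran over all 16647 genes, and 0.05 was the threshold. The smallest two-sided p that an exact permutation test allows with groups of 2 is 0.333, so it was not used.

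The members, role lists and pathway lists were chosen with earlier results of these data known. Every member may be named. Values in all 4 libraries were set to be given for the 10 largest and 10 smallest fold changes past the threshold, the 8 highest mean TPM and the highest in each role, and in each pathway list the 3 highest mean TPM and the extreme changes past the threshold are named. Small RNA genes inside a member on its strand are named where tested. The markers lie outside this rule, as do Wdr12, Acsl3, Wdr3, Wdr36, Pwp2, Tbl3, Wdr43, Wdr75, Snu13 and Gar1, which were chosen after their values were seen. Riok2 is not analysed here, and some pathway genes were found under older symbols. Representative transcripts were taken by protein coding, APPRIS rank, basic tag and coding length, in that order. In all, 15 alternatives were run, of which the adenine trend was chosen after seeing the data.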

Additional observations from a re-analysis of the deposited data

How the results depend on the processing

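With 2 libraries a group and unknown depth, calls rest on few degrees of freedom, and no interval from counts can be given. Leaving out 1 library in turn gave 0 to 31 of the 50 genes higher and 0 to 6 lower, 767 to 7627 and 7 to 2566 of all genes, and 0 to 48 and 0 to 15 of the 105 other pathway genes. The low ends came without SAFB library 1 or 2, the high ends without an IgG library. The cause was not tested.

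The labels number the libraries 1 and 2 in each group. Deviations of same-numbered libraries from their group means had r = -0.0247 across genes, so the numbers were not taken to pair them. With a replicate block, 25 of the 50 genes were higher and 1, Noc4l, was lower, where 4797 and 1264 of all 16647 genes were. Gnl2, Nol7, Nop58, Rrp15 and Tcof1 were called higher in that fit, beside 20 of the 21 genes, and Nop2 was not.

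The count of 50 genes lower, 0 as deposited, was 1 with a pseudocount of 5 and with a filter at 5 TPM, 6 after median centring, 5 after quantile normalization and 5 with protein-coding genes rescaled. The count higher was 13 after median centring. The numbers of all genes higher and lower, 4964 and 1382, became 2736 and 2935 after median centring, 2758 and 2986 after quantile normalization, and 2600 and 2322 with protein-coding genes rescaled, and the number lower was 815 with the GC trend removed and 432 with the adenine trend removed. Of the other pathway genes, 35 higher and 7 lower, median centring left 19 and 22 and quantile normalization 21 and 19. The number lower there was 18 with protein-coding genes rescaled, 4 without a filter, 4 without a variance trend and 2 with the adenine trend removed. In these scalings and trend removals the shift is part of the construction.

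Log2 fold changes of single genes that changed sign were near 0 as deposited for some genes and not for others. As deposited, Nol6 had -0.89, Rrp9 -0.79, Bop1 -0.65, Nol7 0.81 and Gnl2 0.77, and these changed sign with the adenine trend removed. Genes called as deposited that changed sign in some setting included Nop2 (0.37), Ruvbl2 (-0.68), Krt19 (-0.62), Alb (0.43) and Wdr75 (0.58). Median centring gave Pes1 -0.031, Nop2 -0.092, Heatr1 -0.17, Nol12 -0.19, Nol9 -0.21, Nop53 -0.23, Rrp1b -0.43, Rrp36 -0.45, Nhp2 -0.22, Senp3 -0.35, Exosc10 -0.39, Ubtf -0.090, Krt7 -0.46, Gar1 -0.33, Alb -0.029 and Gm24916 -0.29. Quantile normalization gave Heatr1 -0.039, Nol12 -0.18, Nol9 -0.16, Nop53 -0.078, Rrp1b -0.28, Rrp36 -0.39, Nhp2 -0.056, Senp3 -0.18, Exosc10 -0.23, Krt7 -0.21, Gar1 -0.34, Snord23 -0.36 and Gm24916 -0.30. Rescaling protein-coding genes gave Heatr1 -0.0038, Nol12 -0.016, Nol9 -0.038, Nop53 -0.063, Rrp1b -0.27, Rrp36 -0.28, Nhp2 -0.053, Senp3 -0.18, Exosc10 -0.23, Krt7 -0.30 and Gar1 -0.16. Removing the GC trend gave Heatr1 -0.058, Noc2l 0.37, Rrp7a 0.22, Nop9 0.072, Fbl 0.18, Bop1 0.084, Rrp9 0.015, Ruvbl2 0.033 and Krt19 0.069. Removing the adenine trend gave Nol7 -0.17, Gnl2 -0.21, Noc2l 0.34, Nop16 0.072, Rrp7a 0.27, Nop9 0.46, Fbl 0.22, Bop1 0.043, Rrp9 0.068, Nol6 0.023, Exosc10 -0.24, Exosc7 0.15, Wdr75 -0.038, Alb -0.046, Pwp2 0.16, Snord19 -0.48 and Gm24916 -0.45. Leaving out 1 library in turn moved Nol9 from -0.27 to 0.77, Rrp1b from -0.064 to 0.12, Rrp36 from -0.43 to 0.45, Utp4 from -0.35 to 0.091, Rrp7a from -0.51 to 0.00023, Nop10 from -0.64 to 0.11, Exosc10 from -0.11 to 0.26, Krt7 from -0.31 to 0.32, Exosc7 from -0.24 to 0.050, Taf1d from -0.21 to 0.097, Snord82 from -0.0020 to 3.06, Gm24451 from -0.36 to 2.24, Snord23 from -0.73 to 1.79, Snord110 from -0.28 to 2.43 and Gm24916 from -0.65 to 0.99.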
